A study of Homo sapiens with 6 samples.

Results

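The circles described here are the exonic circular RNAs of BEAS-2B cells whose deposited names begin with novel_circ, that is, circles that the authors' table does not list under an hsa_circ name, the naming form of the public circBase catalogue. BEAS-2B is a human bronchial epithelial line that was made immortal in culture. A circle was taken where its class was exonic, a single host gene was given, the deposited spliced length was over 200 and up to 1000 bases and shorter than the genomic span, and the span was under 100000 bases. This rule used no read counts. It took 2364 of the 9857 circles in the table, from 1541 host genes. The comparison set was the 5491 hsa_circ circles, from 2733 host genes, that met the same bounds.

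Cells of the cadmium group (labelled T-BEAS-2B, 3 libraries) were kept in 2.0 µM cadmium for 20 weeks, and cells of the control group (C-BEAS-2B, 3 libraries) at 0.0 µM for 20 weeks. In both groups exposure began 6 hours after seeding and cells were passaged every 3 days. Total RNA was freed of ribosomal RNA and digested with RNase R, an exonuclease that degrades linear RNA, and the libraries kept the strand. Whether the libraries of a group are separate cultures is not in the labels. The p-values therefore refer to the spread among these libraries, part of which may be technical.

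Circular RNAs arise by back-splicing, in which a splice donor is joined to a splice acceptor that lies upstream of it in the same transcript. The product has no free ends, resists exonucleases and is usually more stable than the linear transcript of its gene. Each circle is recognised by reads that cross its back-splice junction, so a junction count does not grow with the length of the circle. Host genes often give several circles, and introns that flank circularised exons are often long. Cadmium is a toxic metal known to induce metallothioneins and oxidative stress genes and to hinder DNA repair.

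Junction reads totalled 133185 to 225769 per library, and the spread between replicates exceeded that of random counting, with 1.59 to 2.49 as chi-square divided by its degrees of freedom. Control replicates 1 and 3 stand apart from the other 4 libraries in the share of junction reads among all reads of circle loci, as given with that measure. No count of 1 occurs in the table, where the smallest value above 0 is 2, and each listed circle has reads in a full group of 3 libraries or in both. Of 20 marker genes of bronchial epithelial and basal cells, 0 hosted a circle of any kind, and neither did any of 18 immune or 12 endothelial markers. Fibroblast and mesenchymal markers hosted circles at 5 of 22 genes, none of them a novel_circ circle of these bounds. The circles therefore give no check of the labelled cell type.

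Back-splice junctions identify the circles, and those of the most abundant novel_circ circles and of circles with separated groups are shown first. Each is the last 15 bases of the circle in lower case followed by its first 15 bases in capitals, 5′ to 3′ on the host's strand, so that the back-splice lies where the capitals begin. The sequences were read from GENCODE 29 transcripts (GRCh38) at the exons named, and the abundant circles come first.
PLOD2 exons 3 to 2: catgtttactgaatgATAAATTATTAGTCA
AC006001.3 exons 5 to 4: tcggatcaaagaaggGAAGAAGATGAGCCT
FOSL1 exons 3 to 2: gacttcctgcaggcgAAGTTCCACCTGGTG
UBE2Q2 exons 5 to 3: caagaccatttaaatCTTCGTCAGCAATTG
FLG-AS1 exons 7 to 5: acaaaggctgcatacGTGTTATATGTGAAC
CEP192 exons 11 to 2: acttcagatctggttTGAGATGGAAGATTT
POLQ exons 14 to 13: ctgctgtttatgcagGTTACACCTATGTTT
ZNF714 exons 4 to 3: tggatgaatccccagGAGACGTTGACATTT
GUSBP1 exons 8 to 5: tcatgactaaccagtGGCTGGTGAATTACC
WDR43 exons 11 to 6: tttgaaatgctaaatGCAGGTCCGATCAGA
CPLANE1 exons 16 to 13: ttcatattaaaacagATTGCTTATTCTCTG
ZGRF1 exons 18 to 11: gtacctgttaacaacGTGACATCACCAGAA

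The back-splices of novel_circ circles lay almost entirely on annotated splice sites, though less completely than those of hsa_circ circles. The acceptor was an annotated exon start in 2311 of 2364 circles (97.8%, against 99.4% of hsa_circ circles), and the donor was an annotated exon end in 2218 (93.8%, against 98.7%). In 130 circles the acceptor alone was annotated, in 37 the donor alone, and in 16 neither. Both ends lay in 1 transcript in 2115 novel_circ circles (89.5%) and 5390 hsa_circ circles (98.2%). In 66 novel_circ circles both ends were annotated, but not in the same transcript. The most abundant circles without both ends in 1 transcript came from FRG1HP, FKBP3 (an immunophilin), MPP6, PIAS2 (a SUMO ligase), TULP4, RNASEH2A (the catalytic subunit of ribonuclease H2), SRSF1 (a splicing factor) and MRPL22. Levels are given as CPM, junction reads scaled by library size. The median of mean levels was 29 CPM with both ends in 1 transcript and 31.2 CPM in the 249 others.

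The name mid-size holds for the deposited lengths, which have to be read with care. Deposited lengths had a median of 341 bases (quartiles 294 and 404, highest 987) against 405 bases in hsa_circ circles (quartiles 320 and 556). In 2364 of 2364 novel_circ circles the deposited length was the sum of the exons listed for that circle, which held in 3267 of 5491 hsa_circ circles (59.5%). The annotated exons between the 2 ends equalled the deposited length in 1186 of the 2115 novel_circ circles with both ends in 1 transcript (56.1%), against 5379 of 5390 hsa_circ circles (99.8%). They were longer in 823 novel_circ circles (38.9%) and shorter in 106. The 2 kinds were thus measured differently in the table. By annotated exons their median lengths were 403 and 403.5 bases. Where several transcripts held both ends, one whose exons equalled the deposited length was preferred. The annotated length is therefore not independent of the deposited one. By annotated exons, 134 novel_circ circles (6.34%) were longer than 1000 bases and 4 were shorter than the lower bound, against 1 (0.0186%) and 0 hsa_circ circles. The bounds were put on deposited lengths and so cut the 2 kinds differently by annotated length. The annotated medians compare the kinds only within these cuts.

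Shorter exon lists were found in both kinds. Fewer exons were listed than are annotated between the ends in 799 of 2115 novel_circ circles (37.8%), and in 1735 of 5390 hsa_circ circles (32.2%). The medians were 321 deposited and 657 annotated bases in these novel_circ circles, and 621 and 620 in these hsa_circ circles. Both outermost exons were in the list in 620 of the 799 (77.6%, against 62.9%). The CEP192 circle, from a gene for a centrosome scaffold, spans exons 2 to 11 with 1538 annotated bases, and 3 exons with 438 bases are listed. ZGRF1, which encodes a DNA helicase, gave a circle of exons 11 to 18 with 1721 annotated and 410 listed bases. The opposite occurred in PLOD2, where exons 2 and 3 hold 229 annotated bases and 4 exons with 484 bases are listed. Which exons a circle holds inside its ends was not measured by junction reads, and the origin of the exon lists was not given in the sources used here.

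**Figure D1:**
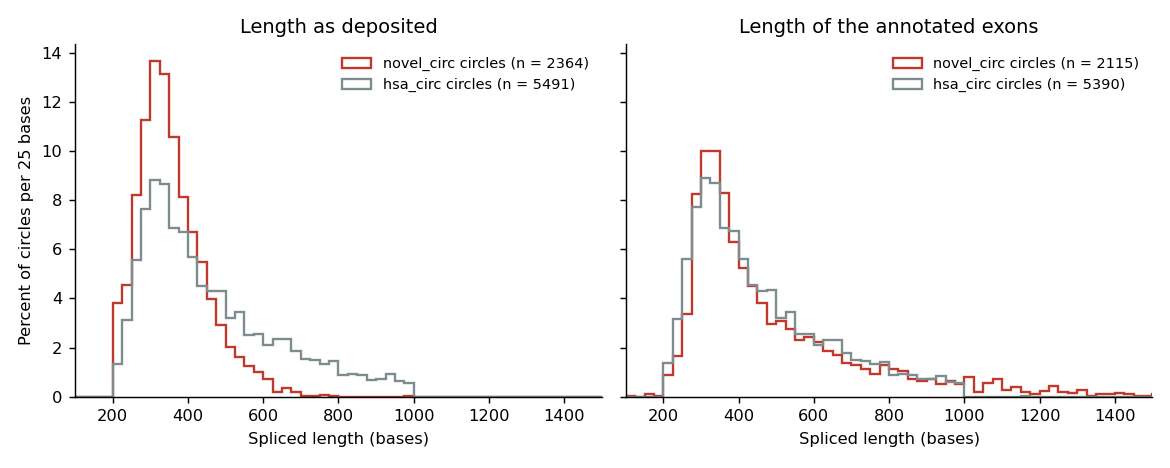
Percent of circles per 25 bases of spliced length, as deposited (left) and as the sum of annotated exons between the 2 ends (right), for novel_circ circles (red) and hsa_circ circles (grey). As deposited, 0.254% of novel_circ circles and 12% of hsa_circ circles exceed 700 bases; by annotated exons the outlines lie close together, and lengths over 1500 bases lie outside the axis.

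Multi-exon also holds for most of the set but not all. Listed exons numbered 2 in 1002 circles, 3 in 912, 4 in 318, 5 in 77 and 6 to 8 in the rest, and 33 circles had 1 listed exon. Genomic spans had a median of 6703.5 bases (6230 in hsa_circ circles). The shortest span was that of a CCHCR1 circle (chr6:31148405-31148728, 324 bases), and an EIF2S3 circle followed with 334 bases (EIF2S3 encodes a subunit of the translation initiation factor eIF2). GRB10, an adaptor of receptor tyrosine kinases, gave the longest (chr7:50669722-50756056, 86335 bases), and a circle of QKI, an RNA-binding protein known to promote circle formation, followed with 79847. Just inside the lower length bound stood circles of ARIH1, of the shortest length it allows, and VRK1 with 202 bases, and just outside it were novel_circ circles of ZNF519 with 200 and DIS3L2 with 199. At the upper end stood SENP2 with 776 and MPP6 with 987 bases. The one novel_circ circle over the upper bound was a ZNF124 circle of 1186 bases with a mean of 1049 CPM. A further 344 novel_circ circles were at or below 200 bases, and none of the kind spanned 100000 bases or more.

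Position within the gene and coding content were close to those of hsa_circ circles. The first exon of the circle was exon 2 of its transcript in 548 of 2115 (25.9%, against 25.4%). The first exon of the transcript, which has no acceptor, was in the circle in 5 cases and the last in 3. Among the 2048 circles matched to coding transcripts, all annotated bases were coding in 1728 (84.4%, against 87.3%). The annotated start codon was inside 254 (12.4%, against 11.6%). Of the 1728 all-coding circles, 661 (38.3%, against 37.9%) had a length divisible by 3. Flanking introns had medians of 5517.5 bases upstream and 5062 downstream, against 6686 and 5851 for hsa_circ circles. The GC content of annotated exons had a median of 42.9% (45.0% in hsa_circ circles). Circles of a host share exons and are not independent of each other, so these differences are given without a test.

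Hosts were protein-coding genes for 2311 circles (97.8%). Noncoding hosts were few but more frequent than among hsa_circ circles in number: 16 circles from antisense genes against 4, and 13 from long intergenic RNAs against 3. Chromosome 5 held 8.33% of novel_circ circles and 5.74% of hsa_circ circles, while chromosome 16 held 1.90% and 3.55%.

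Many novel_circ circles shared one splice site with a catalogued circle of the same gene. An acceptor was shared with an hsa_circ circle of any class, length or span in 554 circles (23.4%) and a donor in 506 (21.4%). For 463 it was the acceptor alone, for 415 the donor alone, and for 91 both ends were found in different hsa_circ circles. In all, 969 circles (41.0%) shared an end, against 2884 hsa_circ circles (52.5%) that shared an end with another hsa_circ circle, and 1395 shared none. Levels were alike in both sets, with a median of 29.4 CPM where an end was shared and 29.3 CPM where none was.

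Most hosts gave a single novel_circ circle: 1081 gave 1, 275 gave 2 and 185 gave 3 or more. An hsa_circ circle was also present in 962 of the 1541 hosts (62.4%). In the 579 other hosts stood 717 novel_circ circles. For 451 circles no other circle of the host was listed at all. A novel_circ circle had the most reads of its host in 734 cases (31.0%), but in hosts with an hsa_circ circle this held for 172 of 1647 (10.4%).

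The 5 hosts with the most novel_circ circles were CPLANE1 with 12, KNTC1 with 11 and FAM13B, GMPS and BIRC6 with 8 each. CPLANE1 encodes a protein of ciliogenesis, KNTC1 a kinetochore protein of the spindle checkpoint, GMPS the last enzyme of GMP synthesis and BIRC6 a giant ubiquitin ligase that inhibits apoptosis. In GMPS, 4 circles began at the acceptor of exon 2 (chr3, position 155893518) and ended at exons 3, 7, 9 and 13. Among these the circle of exons 2 to 7 was the most abundant, with 43, 40 and 25 reads in controls and 35, 42 and 32 with cadmium. The circle of exons 2 to 13 had 0, 4 and 0 reads in controls and 2, 3 and 2 with cadmium. In FAM13B the reverse arrangement was seen, with 4 circles ending at the donor of exon 10 (chr5, position 137985257) and beginning at exons 2, 3, 4 and 5. The one that began at exon 3 had the most reads of these, 21, 15 and 7 in controls and 17, 14 and 12 with cadmium. These were minor products of FAM13B, whose most abundant novel_circ circle, of exons 6 and 7, took 1.31% of the circle reads of the gene. The KNTC1 novel_circ circles were spread from exon 2 to exon 63. Among them the one of exons 21 to 30 led, with 17.5% of the circle reads of the gene. An hsa_circ circle of KNTC1 had more, 172 reads against its 141. BIRC6 circles took 0.857% to 6.62% each.

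Novel_circ circles were less abundant than hsa_circ circles in every library. Their mean level over the 6 libraries had a median of 29.3 CPM (quartiles 19.3 and 49.0), against 51.8 CPM (28.2 and 114) for hsa_circ circles. A mean of 100 CPM or more was reached by 154 novel_circ circles (6.51%) and 1579 hsa_circ circles (28.8%), and of 1000 CPM or more by 1 and 85. Libraries are named here and in what follows in the order of replicates 1, 2 and 3. Median reads per circle were 6, 4 and 5 in controls and 4, 4 and 5 with cadmium. For hsa_circ circles they were 12, 7 and 9 in controls and 7, 7 and 9 with cadmium. The log2 ratio of the medians averaged -0.85 (SD 0.0747, n = 6 libraries) and was below 0 in 6 of 6, with a two-sided exact permutation p of 0.031 by sign flips, the smallest that 6 libraries can give. It was -1.02 within the 912 hosts that gave both kinds (1556 novel_circ and 2302 hsa_circ circles), and -1.47 for mean in place of median reads (exact permutation p = 0.031 for each). Above 0 in all 6 libraries were 1099 novel_circ circles (46.5%) and 3853 hsa_circ circles (70.2%).

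**Figure D2:**
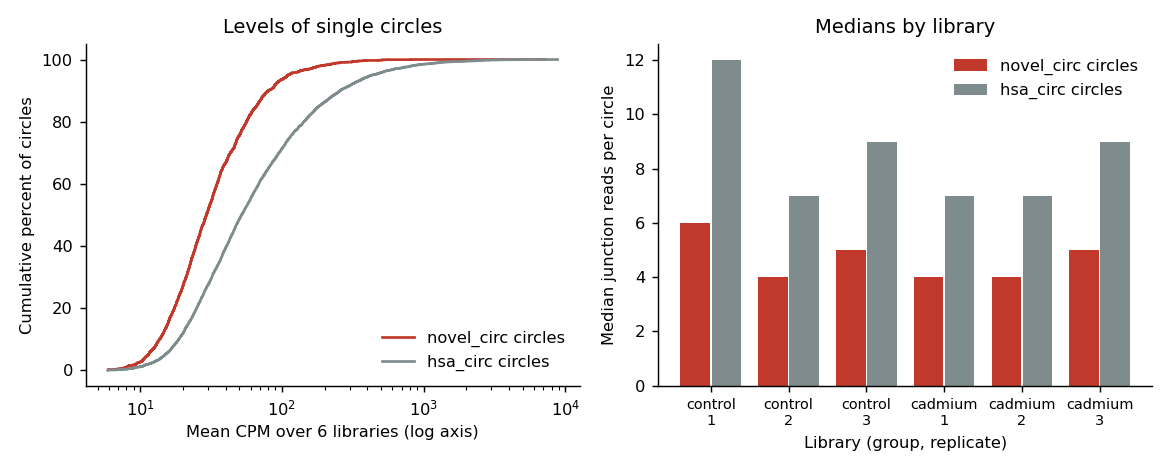
Left, cumulative percent of circles by mean CPM over the 6 libraries (log axis); right, median junction reads per circle in each library. The novel_circ curve (red) lies to the left of the hsa_circ curve (grey), with medians of 29.3 and 51.8 CPM, and the red bar is the lower one in 6 of 6 libraries.

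The PLOD2 circle alone held 6.73% of the 105123 reads of the set, and the 10 highest novel_circ circles together held 11%, against 6.55% for the 10 highest hsa_circ circles. With the highest circle of each kind left out, the order was the reverse, at 4.90% and 5.81%. All 8 of the most abundant are given here by their reads in the 3 control and then the 3 cadmium libraries. For each, the log2 fold change of cadmium over control comes from edgeR's quasi-likelihood test, with its standard error (SE) and a Benjamini-Hochberg adjusted p over 6182 circles. None of the 8 passed the adjusted threshold of 0.05.

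PLOD2 encodes lysyl hydroxylase 2, which prepares collagen for cross-linking. Its circle of exons 2 and 3 (novel_circ_0026364, chr3:146121112-146124229, minus strand) had 1897, 1008 and 1468 reads in controls and 771, 862 and 1064 with cadmium. In CPM these were 8225 ± 804 (SD, n = 3) and 6245 ± 543, so the 3 cadmium libraries lay below the 3 controls (log2 fold change -0.40 with SE 0.12, edgeR adjusted p = 0.421). The circle took 92.9% of the circle reads of PLOD2, whose most abundant hsa_circ circle had 399 reads over all libraries against its 7070. FOSL1 encodes FRA-1, a subunit of the AP-1 transcription factor. Its only listed circle, of exons 2 and 3 (novel_circ_0003037, chr11:65894014-65897006, minus strand), had 67, 61 and 93 reads in controls and 88, 72 and 126 with cadmium. The means were 434 ± 129 and 659 ± 141 CPM (SD, n = 3 each), and the groups overlapped (log2 fold change 0.61 with SE 0.24, edgeR adjusted p = 0.494).

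POLQ encodes DNA polymerase theta, which repairs double-strand breaks by end joining. Its circle of exons 13 and 14 (novel_circ_0025761, chr3:121496808-121498670, minus strand) had 87, 64 and 65 reads in controls and 69, 71 and 89 with cadmium. That is 416 ± 42.3 and 531 ± 32.2 CPM (SD, n = 3 each), with the cadmium libraries above the controls (log2 fold change 0.36 with SE 0.18, edgeR adjusted p = 0.638). UBE2Q2, a ubiquitin-conjugating enzyme, gave a circle of exons 3 to 5 (novel_circ_0009385, chr15:75859878-75873568) with 145, 66 and 66 reads in controls and 88, 77 and 57 with cadmium. It took 79.5% of the circle reads of its gene, and its groups overlapped with a log2 fold change of 0.03. The CEP192 circle (novel_circ_0013578, chr18:12999421-13030608) had 132, 77 and 55 reads in controls and 65, 73 and 68 with cadmium (log2 fold change -0.04). It was a minor product of a gene whose leading hsa_circ circle had 1528 reads against its 470.

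Of the remaining abundant circles, one came from an antisense gene and others from pseudogenes. FLG-AS1, which is antisense to the filaggrin gene, gave a circle of exons 5 to 7 (novel_circ_0016395, chr1:152314906-152335439, plus strand) with 152, 89 and 110 reads in controls and 47, 48 and 58 with cadmium. The means were 664 ± 18.9 and 355 ± 12.96 CPM (SD, n = 3 each), the groups were apart, and this was the lowest adjusted p of all novel_circ circles tested (log2 fold change -0.90 with SE 0.17, edgeR adjusted p = 0.104). With a minimum count of 10 in place of 5 for a circle to be tested, its adjusted p was 0.0465, and over the other alternatives it ran from 0.0564 to 0.766. The libraries kept the strand, but the use of strand in counting was not given in the sources used here. For the FLG-AS1 circle 4 exons with 429 bases are listed, while exons 5 to 7 hold 319 annotated bases. AC006001.3 (novel_circ_0035845, chr7:66573385-66576929) had 135, 79 and 132 reads in controls and 101, 103 and 227 with cadmium, and FRG1HP (novel_circ_0039013, chr9:40993253-41011730) had 119, 74 and 63 and 71, 71 and 87. Both are annotated as transcribed pseudogenes, so their reads may be shared with near-identical copies and their counts are uncertain.

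**Figure D3:**
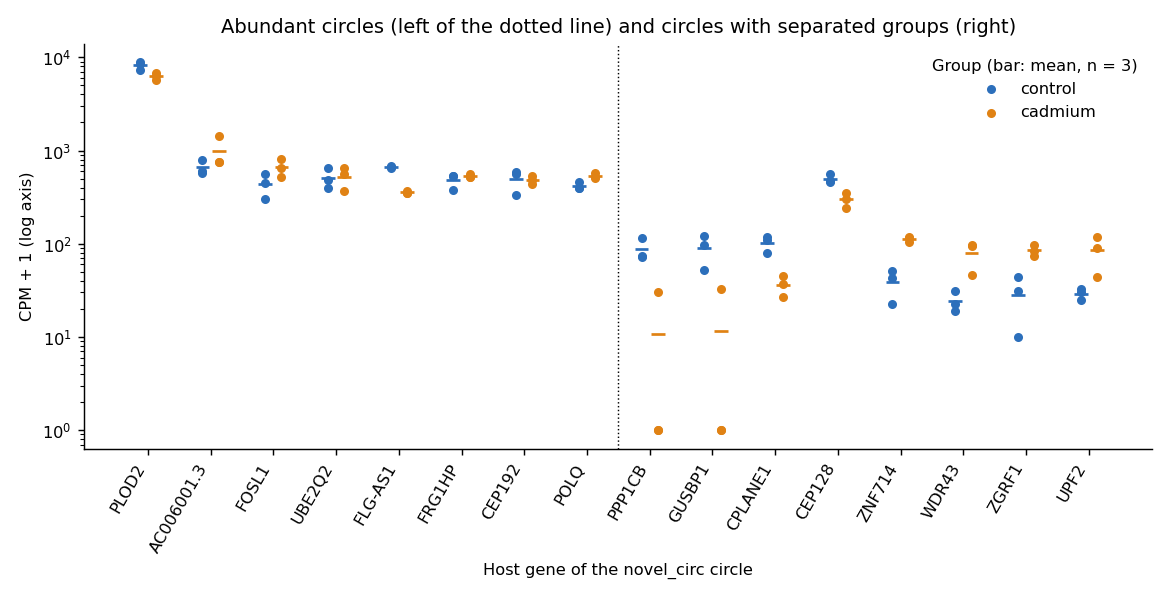
CPM + 1 (log axis) of single novel_circ circles in each library, control in blue and cadmium in orange, with bars at the group means (n = 3). Left of the dotted line stand the 8 most abundant circles, among which PLOD2, FLG-AS1 and POLQ have groups that do not overlap; right of it stand the 4 lower and the 4 higher circles with the smallest p among the others with groups apart, in which points at the bottom are libraries listed at 0.

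The share of reads that went to novel_circ circles overlapped between the groups. Of all junction reads they took 10.9%, 11.4% and 10.9% in controls and 10.8%, 10.7% and 11.1% with cadmium. The difference was -0.201 percentage points (SD 0.235 around 10.9% with cadmium and 0.286 around 11.1% in controls, n = 3 each, two-sided exact permutation p = 0.5). A p under 0.1 is out of reach for this test at 3 against 3. Of the circle reads of the 1003 hosts with a novel_circ circle and at least 1 other circle, novel_circ circles took 16.9% with cadmium (SD 0.490, n = 3) and 17.2% in controls (SD 0.240, n = 3), with an exact permutation p of 0.5.

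Detection was lower in the 3 cadmium libraries, each of which listed fewer novel_circ circles than any control. Reads above 0 were listed for 2234, 2076 and 2114 circles in controls and for 1968, 1922 and 2018 with cadmium. In percent of 2364 these were 90.6 ± 3.49 and 83.3 ± 2.03 (SD, n = 3 each), a difference of -7.28 percentage points with the smallest possible p (exact permutation p = 0.1). Thinned to the lowest library total, the difference was -6.49 (exact permutation p = 0.1), and at 5 or more reads it was -7.71 with groups that overlapped (exact permutation p = 0.3). Detected hsa_circ circles were 97.3%, 92.7% and 94.7% in controls and 91.7%, 90.7% and 92.3% with cadmium. Whether the 2 kinds differ in this drop was not tested. Which circles are listed at all was decided on these libraries at full depth, and the part of that choice in the difference was not tested.

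Junction reads were set against the other reads of the same locus, those that miss the junction. The measure is the doubled number of junction reads as a percent of itself plus the non-junction reads, pooled over 1099 novel_circ and 3853 hsa_circ circles above 0 in all 6 libraries. For novel_circ circles it was 33.8%, 18.7% and 36.0% in controls and 20.4%, 19.97% and 18.9% with cadmium. For hsa_circ circles it was 46.5%, 30.4% and 49.5% in controls and 30.4%, 33.3% and 32.2% with cadmium. Control replicates 1 and 3 were thus high for both kinds, and control replicate 2 lay with the cadmium libraries. Novel_circ circles were lower in 6 of 6 libraries, by 12.4 percentage points on average (SD 1.34, exact permutation p = 0.031).

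This difference between the kinds did not hold on the pooled measure within shared hosts. In hosts that gave both kinds (712 novel_circ and 1671 hsa_circ circles) it was -0.541 percentage points (exact permutation p = 0.53125), and in cadmium replicate 1 it was 3.74 in the other direction. The PLOD2 circle weighs on the pooled value: without it the difference within shared hosts was -3.37 (exact permutation p = 0.063). By the median of single circles, which gives each circle the same weight, it was -10.2 within shared hosts (exact permutation p = 0.031) and -9.86 over all hosts (exact permutation p = 0.031). How the non-junction reads were counted was not given in the sources used here.

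**Figure D4:**
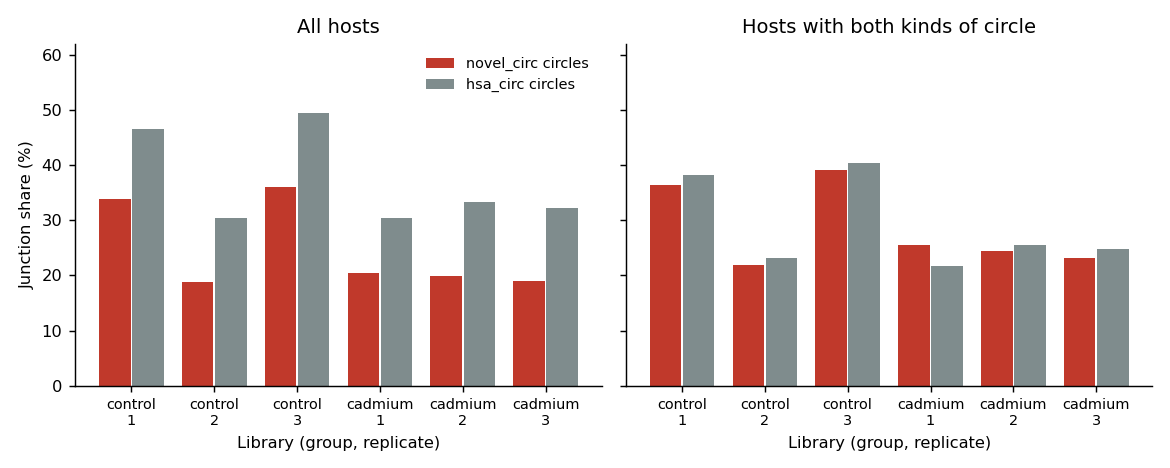
Junction share in percent (doubled junction reads over doubled junction plus non-junction reads, pooled over circles) by library, for novel_circ circles (red) and hsa_circ circles (grey), over all hosts (left) and hosts that gave both kinds (right). Over all hosts the red bar is lower in 6 of 6 libraries; within shared hosts the bars differ by 1.14 to 3.74 percentage points, and in cadmium replicate 1 the red bar is the higher one.

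No single novel_circ circle passed the test between cadmium and control. After the filter on low counts 1096 of 2364 (46.4%) were tested, against 71.3% of hsa_circ circles, and 0 were called by edgeR at an adjusted p under 0.05. Over all 6182 circles tested the test called 0 as higher with cadmium (0%) and 5 as lower (0.0809%). At an unadjusted p under 0.05 stood 37 novel_circ circles that were higher (3.38%, against 4.32% of all circles tested) and 32 that were lower (2.92%, against 3.88%). DESeq2, which was fitted to all 2364, also called 0, with 146 at an unadjusted p under 0.05. Its default filter can leave circles with low counts without an adjusted p, and how many were left so was not worked out. Groups did not overlap in 71 novel_circ circles that were higher with cadmium (6.48%, against 7.52% of all circles tested) and 87 that were lower (7.94%, against 7.78%). These shares lie near the background of all circles. The median log2 fold change was 0.01 in novel_circ circles, the same as in all circles tested. Counts were also simulated at the levels of all circles tested, of either kind, with the same dispersion for every circle. At these depths the test recovered 75 of 100 simulated 4-fold changes and 16 of 100 simulated 2-fold changes over 5627 simulated circles. Most simulated 2-fold changes were thus not called. Novel_circ circles were less abundant than hsa_circ circles, and recovery among them alone was not worked out.

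**Figure D5:**
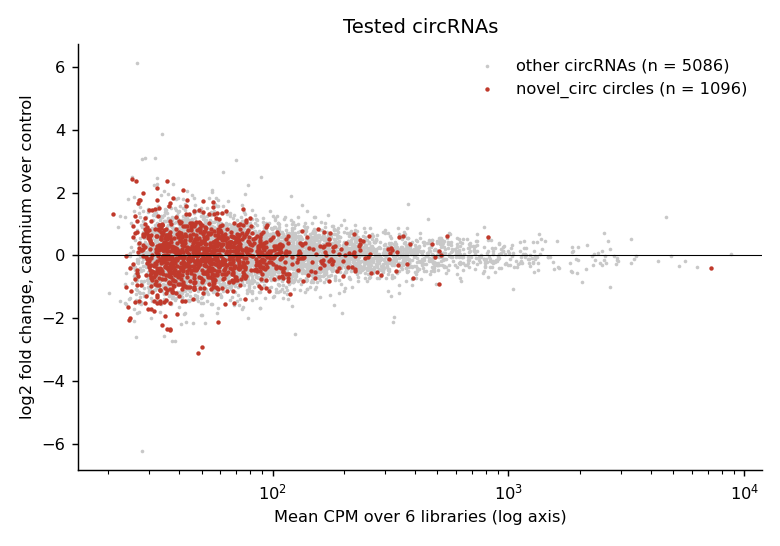
Log2 fold change of cadmium over control against mean CPM over the 6 libraries (log axis) for the 6182 circles tested, with the 1096 novel_circ circles in red. Red points scatter on both sides of 0 and more widely at low CPM. The red point farthest right is the PLOD2 circle at -0.40.

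The circles described next had groups that do not overlap and the lowest unadjusted p in each direction, and none of them passed after adjustment. The first 6 were higher with cadmium. EIF3M encodes a subunit of the initiation factor eIF3, and its circle of exons 3 to 5 (novel_circ_0002515) had 4, 4 and 0 reads in controls and 10, 10 and 9 with cadmium. WDR43 (novel_circ_0024149), a factor of ribosome biogenesis, had 4, 3 and 5 reads and 13, 13 and 7 (log2 fold change 1.72 with SE 0.53, edgeR adjusted p = 0.423). UPF2 (novel_circ_0000257), a core factor of nonsense-mediated decay, had 7, 4 and 4 reads and 16, 6 and 14. CDC123 (novel_circ_0000367), which assists assembly of eIF2, had 7, 4 and 7 and 8, 14 and 16 reads, and its lowest cadmium and highest control values are close in CPM (59.2 and 42.1). ZGRF1 (novel_circ_0028727) had 2, 6 and 5 reads in controls and 13, 10 and 13 with cadmium. A circle of the zinc finger gene ZNF714 (novel_circ_0014906, chr19:21098185-21098910) had 11, 3 and 7 reads in controls and 14, 16 and 18 with cadmium, the lowest p of those that were higher (log2 fold change 1.49 with SE 0.41, edgeR adjusted p = 0.378). It belongs to a large family of similar zinc finger genes, which makes its count uncertain.

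Lower with cadmium were circles with several listed zeros. PPP1CB encodes a catalytic subunit of protein phosphatase 1, and its circle (novel_circ_0024129, chr2:28752038-28799433) had 16, 10 and 19 reads in controls and 4, 0 and 0 with cadmium (log2 fold change -3.10 with SE 0.78, edgeR adjusted p = 0.378). GUSBP1 (novel_circ_0031498), a pseudogene of beta-glucuronidase with near-identical copies, had 27, 7 and 16 reads and 0, 0 and 5. These fold changes rest on a few reads in the cadmium libraries. Circles with reads in every library gave smaller values. The CPLANE1 circle of exons 13 to 16 (novel_circ_0031671) had 26, 15 and 13 reads in controls and 6, 5 and 4 with cadmium, while the circle of exons 13 to 15, with the same acceptor, had 13, 7 and 9 and 6, 8 and 8. CEP128 encodes a centriole protein, and its circle of exons 5 to 8 (novel_circ_0007990) had 104, 63 and 92 reads and 47, 42 and 38 (log2 fold change -0.73 with SE 0.21, edgeR adjusted p = 0.419).

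The 172 novel_circ circles that led a host with catalogued circles include those of PLOD2 and POLQ. A SENP2 circle of exons 3 to 10 took 60.1% of the circle reads of this SUMO protease gene. It had 37, 28 and 24 reads in controls and 36, 38 and 43 with cadmium, which is 171 ± 29.7 and 272 ± 4.95 CPM (SD, n = 3 each), with the groups apart (edgeR adjusted p = 0.439). An AHSA2P circle of exons 2 to 8 took 57.0% and had 82, 53 and 49 reads in controls and 30, 35 and 32 with cadmium, again with the groups apart (log2 fold change -0.63, edgeR adjusted p = 0.439).

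Several genes gave no circle other than one novel_circ circle. TOP1, topoisomerase I, had 40, 24 and 15 reads in controls and 24, 30 and 28 with cadmium, and its groups overlapped. MCM6, a subunit of the replicative helicase, had 26, 14 and 25 reads and 29, 20 and 41. In SRSF1 51, 29 and 37 reads stood against 30, 24 and 54. MYO10, an unconventional myosin of filopodia, had 51, 33 and 32 reads in controls and 18, 16 and 20 with cadmium, with the groups apart (log2 fold change -0.81 with SE 0.26, edgeR adjusted p = 0.436).

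Host lists were compared by counts, and none had a called circle. Over all circles tested, groups were apart in 7.52% as higher and 7.78% as lower with cadmium, which is the background for each list. Of 35 genes of metal handling and oxidative stress, 6 hosted 10 novel_circ circles, of which 5 were tested. The most abundant came from NFE2L2, the gene for the stress-responsive transcription factor NRF2, with 31, 18 and 16 reads in controls and 19, 23 and 16 with cadmium. A circle of SQSTM1, the autophagy receptor p62, had 11, 4 and 10 reads and 4, 5 and 15. Both had overlapping groups, and the 5 log2 fold changes had a median of 0.22 (0.01 over all circles tested), with 0 of 5 having groups apart.

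DNA repair and genome stability genes gave 50 novel_circ circles from 19 of 40 genes. Of 25 tested, 4 were higher and 1 lower with groups apart (background 7.52% and 7.78%), and the median log2 fold change was 0.20. POLQ led the list, and the next, from the mismatch repair gene PMS1, had 22, 33 and 15 reads in controls and 11, 11 and 18 with cadmium. Ubiquitin ligases and deubiquitinases gave the most, 67 circles from 28 of 53 genes, with 2 higher and 3 lower of 35 tested with groups apart (background 7.52% and 7.78%) and a median of 0.16. Here a circle of USP33, a deubiquitinase, had 27, 17 and 18 reads and 30, 17 and 20, and one of the ligase HERC4 33, 11 and 36 and 6, 15 and 16.

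Cell cycle, mitosis and cohesin genes gave 46 circles, of which 18 were tested, with 0 higher and 2 lower with groups apart (background 7.52% and 7.78%) and a median of 0.26. The leading one came from CDC25C, a phosphatase of mitotic entry, with 33, 26 and 26 reads in controls and 22, 24 and 39 with cadmium. Chromatin modifiers and remodellers gave 45 circles, with 0 higher and 2 lower of 20 tested with groups apart (background 7.52% and 7.78%) and a median of -0.01. Adhesion, matrix and epithelial-mesenchymal genes gave 23 circles with a median of -0.31, and 0 higher and 3 lower of 13 tested had groups apart (background 7.52% and 7.78%). PLOD2 is one of the 3, and DLG1, a scaffold of cell polarity, is another, with 44, 37 and 33 reads in controls and 20, 18 and 29 with cadmium. Splicing factors and RNA helicases gave 26 circles with a median of -0.07 over 12 tested, none with groups apart. The leading one, from SON, had 18, 19 and 20 reads and 10, 13 and 24. Autophagy and lysosome genes gave 11, of which 1 was tested, from the lipid kinase gene PIK3C3 with 19, 4 and 9 reads and 7, 6 and 10.

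FLG-AS1 gave 4 novel_circ circles among its 6. Besides the abundant one, that of exons 2 and 3 had 45, 22 and 25 reads in controls and 19, 15 and 34 with cadmium, and that of exons 3 to 6 had 36, 14 and 24 and 27, 15 and 15. The groups overlapped in both, and a difference between circles of the host was not tested. MALAT1, a nuclear long noncoding RNA, had a circle with 21, 8 and 22 reads and 2, 2 and 10 (log2 fold change -1.55 with SE 0.55, edgeR adjusted p = 0.439). Its groups overlapped, with 63.8 CPM in cadmium replicate 3 and 58.0 CPM in control replicate 2, and its acceptor was not an annotated exon start. NEAT1, the scaffold RNA of paraspeckles, had 16, 8 and 15 and 10, 11 and 14 for a circle with neither end annotated.

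Listed at 0 in all 3 libraries of a group were 35 novel_circ circles for controls (1.48%) and 82 for cadmium (3.47%), against 0.492% and 1.40% of hsa_circ circles. Reads behind these were few, at most 10 in a library for those at 0 in controls and 13 for those at 0 with cadmium. In CNOT2, a subunit of the deadenylase complex CCR4-NOT, there were 6, 8 and 4 reads with cadmium, and in the lipid transporter gene ABCA5 3, 10 and 5. In WAPL, which releases cohesin from chromatin, there were 7, 13 and 7 reads in controls, and in UBAP2L 7, 6 and 6. The bound that every listed circle is above 0 in all libraries of a group makes this class by construction, so no test is given.

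Some listed zeros stood beside higher counts in the same group. In 24 cases, in 23 circles, a library was at 0 where the other libraries of its group implied 10 or more reads, 10 of them in controls and 14 with cadmium. The implied number is the mean CPM of those other libraries, brought to the depth of the library at 0. Why these libraries are at 0 was not tested. CCDC77 had 0, 13 and 32 reads in controls, where about 31.9 were implied in the first. RAB3IP, an activator of Rab8, had 20, 0 and 49 with cadmium, where about 31.8 were implied in the second. MARCH3 (novel_circ_0030306), a ubiquitin ligase gene with this one circle, had 27, 15 and 29 reads in controls and 0, 0 and 37 with cadmium. Both of its cadmium zeros were counted as cases through the library with 37 reads. Without cadmium replicate 3 it was called as lower (edgeR adjusted p = 0.00791), and with all libraries its adjusted p was 0.917.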

How the data were processed

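Circular RNAs were measured in 3 control and 3 cadmium libraries. The count values, as deposited by the authors, are numbers of reads that cross the back-splice of each circle in each library. The deposited TPM values are these counts as a share of the library total, with no length term, and were used in 1 alternative. Deposited annotation gives positions, listed exons, lengths and non-junction reads. Per the submitters' processing notes, the tools were Bowtie2 2.2.8, Bowtie and DESeq 1.10.1 and the build hg19, without roles; the circle caller was not given in the sources used here. Deposited positions fit exon bounds of GRCh38 (GENCODE 29), so they are given in that build, counted from 1. Exons, coding bases and sequences come from GENCODE 29 transcripts with both ends on exon bounds. Where several transcripts fitted, one whose exons summed to the deposited length was preferred. Circles of more than 1 host gene were left out.

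Counts of the whole table were tested with edgeR 4.0.16 in R 4.3.3 (TMM factors, robust quasi-likelihood, filterByExpr with minimum count 5 and minimum total 15, Benjamini-Hochberg adjusted p under 0.05). CPM uses TMM library sizes, and the SE was worked back from the log2 fold change and its F statistic. For shares, two-sided exact permutation tests over libraries were used. The fit was tested on simulated data. Alternatives were other size factors and filters, DESeq2 1.42.0, limma 3.58.1 on log2(TPM + 1), a block for the replicate number, other summaries, and leaving out each library in turn. The labels name no molecular identifiers, so reads may include copies of 1 molecule.

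The circles, host lists and named circles were chosen with earlier results of these data known. Named are the 8 highest by mean CPM, called circles, the 6 higher and 6 lower with the smallest p among those with groups apart, the 5 hosts with the most circles, the leading circles of each list, up to 4 per direction listed at 0 in a whole group, extremes of span and length, and up to 4 with the highest share of their host's circle reads. Some of these stand only in counts, and 1 result is not reported here. Circles named as sole circles of a host, from noncoding hosts, without both ends in 1 transcript, or with a 0 where reads were implied were chosen after their values were seen.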

Additional observations from a re-analysis of the deposited data

How the results depend on the processing

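The number of novel_circ circles called was 0 in edgeR and in 11 of 13 alternatives; it was 1 with a minimum count of 10 (FLG-AS1) and, leaving out single libraries, ran from 0 to 1 (MARCH3, without cadmium replicate 3). The level difference against hsa_circ circles kept its direction, with a log2 ratio of -0.86 to -0.82 when a library was left out, and so did the junction share difference, with -12.9 to -12.2 percentage points; with 5 libraries the exact permutation test cannot give a p under 0.063. Within hosts of both kinds the junction share difference was -0.541, and -3.37 without PLOD2. Analyses within hosts of both kinds, without the most abundant circle and with annotated length as the bound were chosen after seeing the data.

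Replicate numbers were not shown to pair the libraries: deviations of same-numbered libraries correlated at 0.000205, 0.0216 and 0.0517. With the replicate block 0 circles were called, with 58 against 69 at an unadjusted p under 0.05. In the pairing by number the differences were -0.201 for the share of junction reads (exact permutation p = 0.75), -7.28 for detection (p = 0.25, the smallest that 3 pairs can give) and -0.250 for the share of host reads (p = 0.75). The detection value is partly set by which circles are listed, as given with that measure. Depth limits the test, since 1268 of 2364 novel_circ circles did not pass the filter on low counts.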
